A study of Mus musculus with 6 samples.

Results

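Apoptosis and survival genes were followed in mouse regulatory T cells (Tregs) with and without the adenosine 2A receptor (A2AR), and with and without an agonist of it. The set was 36 genes listed by name: the Bcl-2 family, death receptors with their ligands and adaptors, caspases, inhibitors of apoptosis, and mitochondrial and nuclear factors of cell death. Every array probe set annotated to a listed gene was taken. Of the 36 genes, 34 had a probe set, 90 probe sets in all, among 18193 genes with a probe set in the series. Bax and Ripk1 were not analysed here. Of the 34, 31 genes were bright enough to be tested, out of 10916 genes tested in all.

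The series holds 6 expression arrays in 3 groups of 2. All cells came from spleen and lymph nodes of C57Bl/6 mice aged 8 to 11 weeks, every group carried the FoxP3GFP reporter, and cells were sorted by fluorescence as CD4+CD25+FoxP3+. Wild-type cells (A2AR+/+FoxP3GFP) were cultured for 18 h with the vehicle DMSO (WT vehicle) or with 10 nM ATL1222, a agonist selective for A2AR (WT ATL1222). Receptor-deficient cells (A2AR-/-FoxP3GFP) were cultured for 18 h with DMSO (KO vehicle). The labels describe the cells as unactivated, and no knockout group with agonist was used here. Replicates are called biological, but no label says that separate animals were used, so the p-values reflect no more than array-to-array spread, which may be technical.

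T cells die by a mitochondrial route and by a death receptor route. In the mitochondrial route, BH3-only proteins neutralise the pro-survival proteins Bcl2, Bcl2l1 (Bcl-xL) and Mcl1, or activate the pore formers Bax and Bak1, so that cytochrome c leaves the mitochondrion and Apaf1 activates caspase 9. In the death receptor route, Fas ligand engages Fas, Fadd recruits caspase 8, and Cflar (c-FLIP) restrains it. Tregs depend on Mcl1 and on interleukin 2 signalling for survival, and Bcl2l11 (Bim) limits their number. A2AR raises cyclic AMP.

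The deposited signals had the same mean on each array once the top and bottom 2% of probe sets were set aside, with medians of 74.7 to 98.2. The Treg markers Ikzf2 (6810 to 8431), Nrp1 (5319 to 8299), Ctla4 (3432 to 6410), Cd3e, Il2ra and Cd4 were above the limit for dim genes, a signal of about 71.2. Foxp3, the sorted marker, was not, at 7.18 to 53.5. Among markers of other cells, 4 of 9 with a probe set lay above the limit. Their signals summed to 177 to 277 in WT vehicle, 181 to 304 in KO vehicle and 264 to 306 in WT ATL1222 for B cells, and to 126 to 257, 174 to 234 and 136 to 216 for myeloid cells. For CD8 T and NK cells the sums were 341 to 431, 434 to 449 and 310 to 353, so that KO vehicle lay above both wild-type groups. The markers above the limit were Ms4a1 (150 to 243), Csf1r (63.3 to 122), Cd8b1 (118 to 249.1) and Nkg7 (81.2 to 193). Cd8b1, of CD8 T cells, differed by 0.77 ± 0.30 in KO vehicle against WT vehicle (limma unadjusted p = 0.0227, adjusted p = 1.00). Nkg7 of the same list went the other way, by -0.50 ± 0.38 (limma unadjusted p = 0.207). Of its dim members, Cd8a had a lower mean in KO vehicle (76.0 against 85.6) and Ncr1 a higher one (44.0 against 24.1). The others, Cd79a, Lyz2, Itgam, Cd8a and Ncr1, had means below it. The part of other cells in the differences below was not tested, and in such bulk samples fewer cells of a type and less RNA per cell cannot be told apart. As a sign of RNA quality, the 3' over 5' signal ratio was 1.21 to 1.45 for Gapdh and 1.93 to 2.53 for Actb. The receptor's own gene is not reported here, so the genotype has no expression check. The cyclic AMP responsive gene Rgs2, a regulator of G protein signalling, read 4051 and 3255 in WT vehicle, 1592 and 1285 in KO vehicle, and 12115 and 12894 in WT ATL1222. It fell by 1.33 ± 0.15 (SE, n = 2 arrays a group) on the log2 scale in KO vehicle (limma adjusted p = 0.00484) and rose by 1.78 ± 0.15 in WT ATL1222 (adjusted p = 1.51e-04), both against WT vehicle. Crem and Pdcd1 passed in the same directions, at adjusted p = 0.00484 each in KO vehicle and at 9.69e-04 and 0.00840 in WT ATL1222.

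None of the 31 genes passed the test in any comparison. Receptor loss, the agonist, and the widest contrast of agonist-treated wild-type with receptor-deficient cells each left 0 of 31 past a limma adjusted p of 0.05, against 3 of 10916 genes (0.0275%), 23 (0.211%) and 109 (0.999%). With the replicate number as a block, 0 of 31 passed again, against 0.0824%, 0.724% and 2.42% of all genes. At an unadjusted p under 0.05 stood Fadd in KO vehicle against WT vehicle (1 of 31, 3.23%, against 3.89% of all genes) and Pmaip1 in WT ATL1222 against WT vehicle (1 of 31, 3.23%, against 5.03%). In WT ATL1222 against KO vehicle Bcl2, Bbc3, Pmaip1 and Birc2 stood there (4 of 31, 12.9%, against 8.48%). The comparisons share arrays, so their values are given side by side and were not counted as separate evidence.

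The differences were evenly split in sign. In KO vehicle against WT vehicle 16 means were higher and 15 lower, with a median log2 fold change of 0.01 beside 0.00 over all genes. In WT ATL1222 against WT vehicle 14 were higher and 17 lower, with a median of -0.01, the same as over all genes. In WT ATL1222 against KO vehicle 15 were higher and 16 lower, with a median of -0.01 beside -0.02. The median size of a difference, whatever its sign, was 0.112, 0.202 and 0.210 in that order, beside 0.154, 0.157 and 0.181 over all genes tested. A standard error was 0.201 at the median for these genes and 0.231 over all genes.

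The intervals say how large a difference these arrays leave possible. By the probe set used for each gene, the 95% interval of the fold change lay within 2-fold either way for 30 of 31 genes in each comparison, beside 8195, 8116 and 7822 of 10916 genes. The exceptions were Fadd in KO vehicle against WT vehicle, Aifm1 in WT ATL1222 against WT vehicle, and Fadd in WT ATL1222 against KO vehicle. Within 1.5-fold lay 15, 14 and 13 of the 31 genes. For the rest a difference of 1.5-fold is inside the interval, so a missed threshold does not show equal levels.

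Groups whose arrays do not overlap were common among these genes and among all genes. They were found for 12 of 31 genes (38.7%) in KO vehicle against WT vehicle, beside 29.6% of all genes. For WT ATL1222 against WT vehicle they were 13 (41.9%, beside 30.8%), and for WT ATL1222 against KO vehicle 14 (45.2%, beside 38.2%). With 2 arrays a group such separation is frequent, and it is given below only as a description of the arrays.

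**Figure D1:**
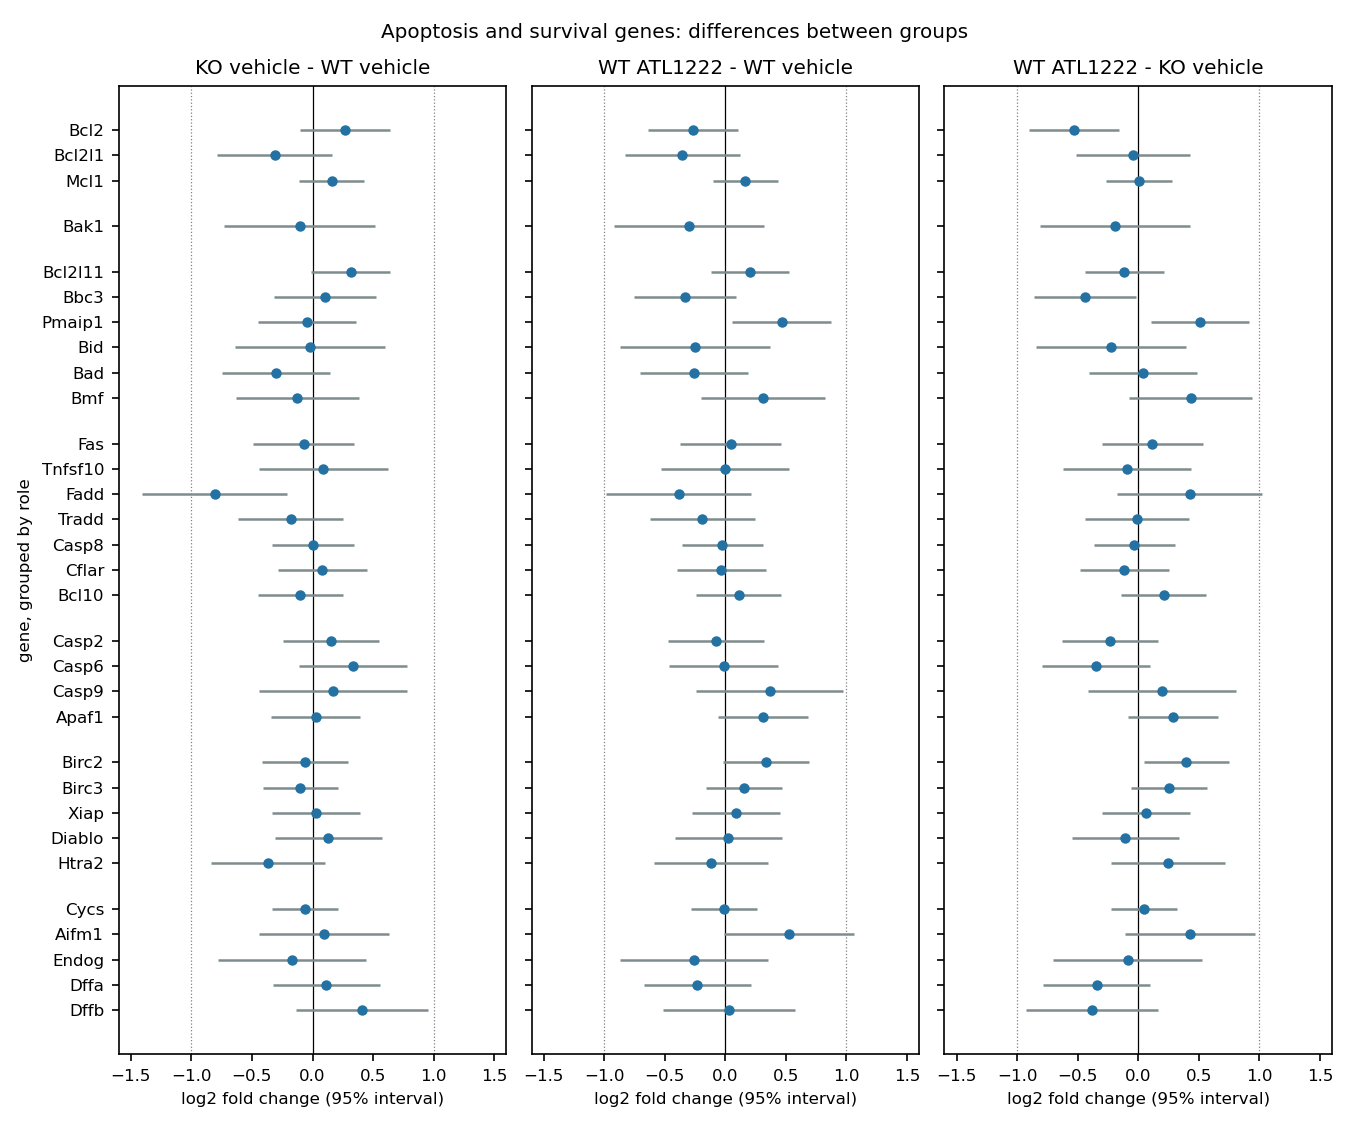
Log2 fold change (horizontal axis, points) with its 95% interval (lines) for the 31 tested genes, grouped by role, in the 3 comparisons; dotted lines mark a 2-fold difference. Points lie on both sides of 0 in every panel, and the intervals of 30 of 31 genes stay between the dotted lines in each.

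Of the pro-survival proteins, Bcl2, which holds pore formers and BH3-only proteins in check, came closest to the threshold. It read 619 and 719 in WT vehicle, 779 and 831 in KO vehicle, and 526 and 578 in WT ATL1222. The 3 groups did not overlap: the receptor-deficient arrays were the highest and the agonist arrays the lowest. The log2 fold change was 0.26 ± 0.17 (SE, 95% interval -0.11 to 0.64) in KO vehicle and -0.27 ± 0.17 (-0.64 to 0.10) in WT ATL1222, each against WT vehicle. Between WT ATL1222 and KO vehicle it was -0.53 ± 0.17 (-0.90 to -0.16), a 1.45-fold lower signal, with a limma unadjusted p of 0.00836 and an adjusted p of 0.267, which does not pass (0.0736 with the replicate block). The other 4 Bcl2 probe sets had lower means in WT ATL1222 than in KO vehicle as well, by -0.72, -0.40, -0.34 and -0.07 on the log2 scale. They did not all repeat the order of the 3 groups: against WT vehicle they ran from -0.01 to 0.42 in KO vehicle and from -0.41 to 0.15 in WT ATL1222.

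Mcl1, a short-lived guardian on which T cells depend, had among the smallest standard errors of these genes. Its signals were 5763 and 5521 in WT vehicle, 6173 and 6418 in KO vehicle, and 6034 and 6627 in WT ATL1222. WT vehicle was lowest, and the other two groups overlapped. Both differences from WT vehicle were 0.16 ± 0.13, and that between the agonist and knockout groups was 0.01 ± 0.13 (95% interval -0.26 to 0.28). Over all 6 Mcl1 probe sets the knockout minus wild-type difference ran from 0.04 to 0.35. The largest had a limma unadjusted p of 0.0209 and did not pass once adjusted. The agonist differences depended on the probe set: against WT vehicle they ran from -0.14 to 0.16, and against KO vehicle the other 5 probe sets stood at -0.32 to -0.04, the first with an unadjusted p of 0.0295. Bcl2l1, the gene of Bcl-xL, read 329 and 366 in WT vehicle, 287 and 266 in KO vehicle, and 290.0 and 247 in WT ATL1222. WT vehicle was highest and the other groups overlapped. The differences from WT vehicle were -0.31 ± 0.22 and -0.36 ± 0.22, neither past the test (adjusted p = 1.00 and 0.998).

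Of the pore formers Bak1 was tested, and it lay between 137 and 193 on all arrays. Its difference was -0.11 ± 0.29 in KO vehicle and -0.30 ± 0.29 in WT ATL1222, each against WT vehicle. Bok, a relative of Bax and Bak1, was below the limit. Its signals were 12.8 and 18.1 in WT vehicle, 77.3 and 26.6 in KO vehicle, and 66.0 and 27.2 in WT ATL1222. Bok carries no test here, by gene or by probe set.

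BH3-only proteins are the sensors that start the mitochondrial route, and 6 of 7 were tested. Pmaip1 (Noxa), which binds Mcl1, had the smallest p of the 31 genes in WT ATL1222 against WT vehicle. It read 382 and 376 in WT vehicle, 370.4 and 364 in KO vehicle, and 541 and 517 in WT ATL1222. Both agonist arrays lay above all 4 vehicle arrays, and arrays of a group differed little. The difference was 0.46 ± 0.19 (95% interval 0.06 to 0.87), or 1.38-fold, against WT vehicle, with a limma unadjusted p of 0.0278 and an adjusted p of 0.873. Against KO vehicle it was 0.51 ± 0.19 (0.10 to 0.91), or 1.42-fold, with an adjusted p of 0.393. Neither passed. Pmaip1 has a single probe set, so no other probe set could be set beside it.

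Bcl2l11, the gene of Bim, had the second smallest p in the knockout comparison. Its signals were 1701 and 1715 in WT vehicle, 2272 and 1998 in KO vehicle, and 1765 and 2193 in WT ATL1222. Both groups lay above WT vehicle and overlapped each other. Receptor loss gave 0.32 ± 0.15 (95% interval -0.01 to 0.64; unadjusted p = 0.0558, adjusted p = 1.00), and the agonist 0.20 ± 0.15. The 5 Bcl2l11 probe sets were not of one sign in the knockout comparison: 4 stood at 0.28 to 0.35 and the dimmest, with signals of 51.3 to 75.1, at -0.24.

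Bbc3 (Puma), a p53 target that binds all the pro-survival proteins, read 631 and 496 in WT vehicle, 653 and 554 in KO vehicle, and 409.7 and 472 in WT ATL1222. The agonist arrays were the lowest, below all 4 vehicle arrays. The difference was -0.34 ± 0.20 against WT vehicle (95% interval -0.76 to 0.08) and -0.44 ± 0.20 against KO vehicle (-0.86 to -0.02), the latter with an unadjusted p of 0.0427 and an adjusted p of 0.552.

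The other BH3-only genes gave smaller or noisier differences. Bmf, which is tied to the cytoskeleton, read 305 and 233 in WT vehicle, 247 and 240.3 in KO vehicle, and 375 and 299 in WT ATL1222, a difference of 0.44 ± 0.24 between the last pair of groups. Another tested Bmf probe set, dimmer at 47.6 to 121, gave -0.19 ± 0.49 there. In KO vehicle against WT vehicle it gave 0.49 ± 0.49, where the probe set used for the gene gave -0.12. Bad, which is regulated by phosphorylation, lay between 334 and 493, with -0.30 ± 0.21 in KO vehicle and -0.26 ± 0.21 in WT ATL1222 against WT vehicle. Its other probe set gave -0.14 ± 0.29 and 0.04 ± 0.29 in the same order. Bid, which caspase 8 cleaves to link both routes, was higher on replicate 1 in every group: 605 against 329.6 in WT vehicle, 523 against 371 in KO vehicle, and 465 against 300.1 in WT ATL1222. Its replicate 2 minus replicate 1 difference was -0.64 ± 0.14 with an adjusted p of 0.0625, and its 3 groups overlapped. Bik was below the limit, at 13.3 to 58.5.

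Over the BH3-only genes the medians were -0.03, -0.02 and -0.04 in the 3 comparisons. In WT ATL1222 against WT vehicle, by the probe set used for each gene, 3 of 6 means were higher (Pmaip1, Bmf, Bcl2l11) and 3 lower (Bbc3, Bad, Bid).

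**Figure D2:**
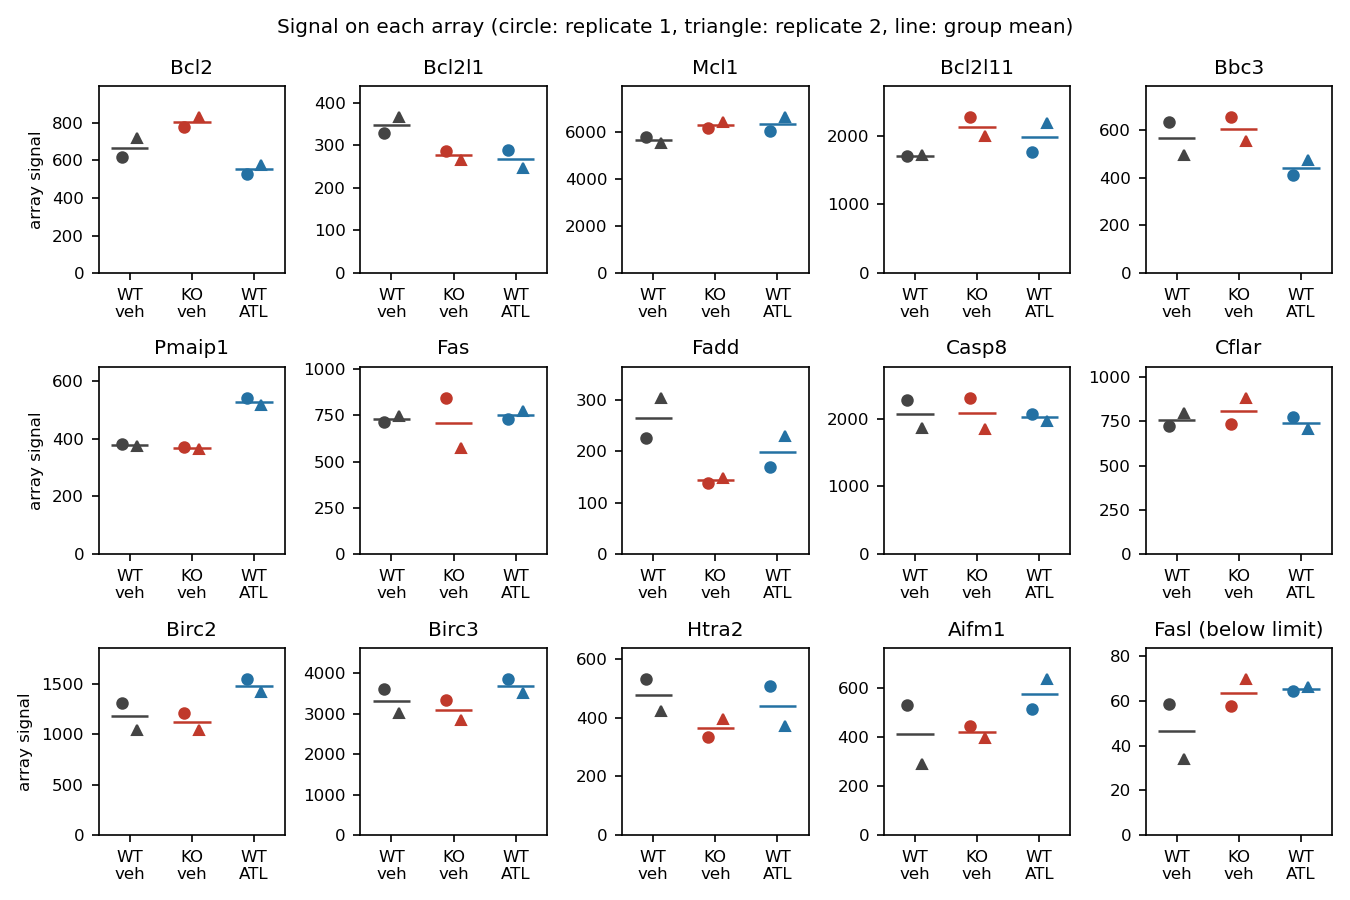
Array signal (vertical axis, linear, from 0) of 15 genes on each array, by group on the horizontal axis; circles are replicate 1, triangles replicate 2, and lines group means. Pmaip1 stands at 541 and 517 in WT ATL1222 and at 364 to 382 on the 4 vehicle arrays, Bcl2 is highest in KO vehicle, Fadd is lowest there, and Fasl lies below the limit for dim genes.

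In the death receptor route, Fadd, the adaptor that bridges Fas to caspase 8, had the largest difference of the 31 genes in any comparison, by the probe set used for each gene. It read 227 and 303 in WT vehicle, 138 and 148 in KO vehicle, and 169.7 and 229 in WT ATL1222. Both knockout arrays were below the other 4, while the wild-type groups overlapped. The knockout minus wild-type difference was -0.81 ± 0.28 (95% interval -1.41 to -0.21), a 1.75-fold lower signal, with a limma unadjusted p of 0.0118 and an adjusted p of 1.00 (0.506 with the replicate block). Within replicate 1 it was -0.65 and within replicate 2 -0.96. A second, dimmer Fadd probe set (17.1 to 111) gave 0.47 ± 0.58, the opposite sign, and with the pair averaged the difference was -0.17.

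Fas, the death receptor itself, read 717 and 745 in WT vehicle, 844 and 571 in KO vehicle, and 733 and 775 in WT ATL1222. The KO vehicle arrays spanned all the others. Differences were -0.07, 0.04 and 0.11, each ± 0.19. Its ligand Fasl was below the limit for genes. It read 58.8 and 34.1 in WT vehicle, 57.8 and 69.8 in KO vehicle, and 64.7 and 66.2 in WT ATL1222. Tested by probe set, where the limit was lower, it gave 0.38 ± 0.49 in KO vehicle. In WT ATL1222 it gave 0.41 ± 0.49, both against WT vehicle. The other Fasl probe set gave 0.12 ± 0.53 and -0.31 ± 0.53 in the same order. Tnfsf10 (TRAIL), another death ligand, lay between 217 and 292 with differences of -0.09 to 0.09, by the probe set used for the gene. Another tested Tnfsf10 probe set lay between 141 and 229. Against WT vehicle it gave -0.14 ± 0.30 in KO vehicle and -0.23 ± 0.30 in WT ATL1222.

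Casp8, the initiator caspase of this route, read 2276 and 1860 in WT vehicle, 2305 and 1853 in KO vehicle, and 2070 and 1975 in WT ATL1222. The groups overlapped fully. Its differences were 0.01, -0.03 and -0.03, each ± 0.16, with intervals that reach no further than -0.37 and 0.34. Cflar, which restrains caspase 8, read 721 and 798, 732 and 881, and 775 and 708 in the same order. Those groups overlapped too, with differences of 0.08, -0.03 and -0.11, each ± 0.17. The other tested Cflar probe sets spread wider. Against WT vehicle they ran from -0.22 to 0.43 in KO vehicle and from -0.41 to 0.18 in WT ATL1222. Tradd, an adaptor of TNF receptor 1, lay between 471 and 680.2, and Bcl10, which carries antigen receptor signals to NF-kB, between 1282 and 1762. By the probe set used for each gene, no difference of either was larger than 0.21 in size. Another tested probe set of Tradd gave -0.34 ± 0.29 in WT ATL1222 against WT vehicle. Another of Bcl10 gave 0.32 ± 0.15 in WT ATL1222 against KO vehicle.

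Among the other caspases and Apaf1, 4 genes were tested. Apaf1, the scaffold of the apoptosome, was higher on both agonist arrays (839 and 839.7) than on the vehicle arrays (609 to 747). Its difference from WT vehicle was 0.31 ± 0.17 (95% interval -0.06 to 0.68; adjusted p = 0.998). A second, dim Apaf1 probe set read 36.5 and 21.3 in WT vehicle, 106 and 64.8 in KO vehicle, and 71.2 and 66.1 in WT ATL1222. It gave 1.17 ± 0.51 in KO vehicle (unadjusted p = 0.0425, adjusted p = 1.00) and 0.93 ± 0.51 in WT ATL1222 against WT vehicle, where the probe set used for the gene gave 0.03 and 0.31. Casp9, which Apaf1 activates, read 208 and 188 in WT vehicle and 296 and 227 in WT ATL1222, a difference of 0.36 ± 0.28, with KO vehicle at 291 and 172. Casp6, an executioner caspase, was highest in KO vehicle at 466 and 446 beside 373 and 346 in WT vehicle and 409 and 308 in WT ATL1222. The knockout difference of Casp6 was 0.33 ± 0.21 (-0.12 to 0.78). Casp2 lay between 922 and 1318, with replicate 1 higher in every group. In KO vehicle against WT vehicle 4 of 4 means were higher, with a median of 0.16; none passed.

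The inhibitors of apoptosis include Birc2 and Birc3 (cIAP1 and cIAP2), ubiquitin ligases of TNF receptor and NF-kB signalling, and Xiap, which blocks caspases directly. Birc2 is shown first with its promoter, since the agonist acts through a receptor that raises cyclic AMP. Among the 32 genes with a promoter searched, it is 1 of 2 whose promoter holds the full cyclic AMP response element. The other, Cycs, is the gene of cytochrome c. The motif was TGACGTCA, which reads the same on both strands, searched for in the 250 bases before each start site of RefSeq's GRCm38.p6 table. It was found in 508 of 32851 promoters (1.55%) and in 2 of 44 promoters that belong to 32 of the genes. Its shorter core TGACG, on either strand, was found in 5836 promoters (17.8%) and in 11 of these 44, of 10 genes. Pmaip1, Bik, Tradd and Htra2 had no promoter in this search. The Birc2 sequence is at chr9:7837058-7837307 and the Cycs sequence at chr6:50566570-50566819, both on the minus strand and printed 5′ to 3′ with the motif in capitals. A match is a description of these letters and does not show a bound site.
Birc2: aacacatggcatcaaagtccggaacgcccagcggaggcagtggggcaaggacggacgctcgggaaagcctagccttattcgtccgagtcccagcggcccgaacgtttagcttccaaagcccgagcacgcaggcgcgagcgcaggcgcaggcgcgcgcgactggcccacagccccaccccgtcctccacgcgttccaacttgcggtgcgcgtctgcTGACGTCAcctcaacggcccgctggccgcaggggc
Cycs: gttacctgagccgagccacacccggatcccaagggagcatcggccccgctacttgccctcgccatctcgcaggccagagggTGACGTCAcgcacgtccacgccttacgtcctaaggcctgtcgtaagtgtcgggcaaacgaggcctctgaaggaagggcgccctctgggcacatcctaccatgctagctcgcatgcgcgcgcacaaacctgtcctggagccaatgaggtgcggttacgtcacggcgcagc

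The motif begins 35 bases before the Birc2 start and 169 bases before the Cycs start. Another Birc2 promoter of the table, at chr9:7836807-7837056, lacks it. The signals of the pair differed in pattern. Birc2 read 1313 and 1040 in WT vehicle, 1207 and 1037 in KO vehicle, and 1546 and 1414 in WT ATL1222. Both agonist arrays were above all 4 vehicle arrays. The difference was 0.34 ± 0.16 (95% interval -0.02 to 0.69; adjusted p = 0.998) against WT vehicle and 0.40 ± 0.16 (0.04 to 0.75; unadjusted p = 0.0303, adjusted p = 0.479) against KO vehicle, a 1.32-fold higher signal that did not pass. Cycs read 3244 and 3237 in WT vehicle, 3098 and 3119 in KO vehicle, and 3195 and 3228 in WT ATL1222. These groups did not overlap, yet they lay close together: the differences were -0.06, -0.01 and 0.05, each ± 0.13. For Cycs the interval in WT ATL1222 against WT vehicle was -0.29 to 0.26.

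Birc3 read 3606 and 3010 in WT vehicle, 3328 and 2838 in KO vehicle, and 3851 and 3498 in WT ATL1222. The agonist arrays lay above the knockout arrays and overlapped with WT vehicle. Differences were -0.10, 0.16 and 0.25, each ± 0.15, for the knockout and for the agonist against WT vehicle, and for the agonist against the knockout group. Xiap lay between 1490 and 2078, with differences of 0.03, 0.09 and 0.06, each ± 0.17.

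Diablo (Smac) and Htra2 leave the mitochondrion and displace inhibitors of apoptosis from caspases. Htra2 had the third smallest p in the knockout comparison, at 532 and 422 in WT vehicle, 334 and 397 in KO vehicle, and 508 and 372 in WT ATL1222. The knockout arrays lay below WT vehicle and overlapped with WT ATL1222. Its difference was -0.37 ± 0.22 (95% interval -0.84 to 0.11; unadjusted p = 0.118, adjusted p = 1.00), while its other probe set gave 0.17 and the pair averaged -0.10. Diablo lay between 369 and 506, with differences of 0.13, 0.02 and -0.11.

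Among the mitochondrial and DNA degradation factors, Aifm1 (AIF), a flavoprotein of the mitochondrion that can act in the nucleus during cell death, had the second smallest p in WT ATL1222 against WT vehicle. It read 530.3 and 292 in WT vehicle, 447 and 397 in KO vehicle, and 516 and 636 in WT ATL1222. The WT vehicle arrays stood far apart, and replicate 1 lay inside the agonist range. The difference was 0.52 ± 0.25 (95% interval -0.01 to 1.06; adjusted p = 0.998), made of -0.04 within replicate 1 and 1.08 within replicate 2. Without WT vehicle replicate 1 it was 0.94 (adjusted p = 0.205), and without WT vehicle replicate 2 it was 0.11.

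Dffb, the nuclease that cuts DNA between nucleosomes, and Dffa, its inhibitor and chaperone, were both highest in KO vehicle. Dffa read 367 and 376 in WT vehicle, 408 and 398 in KO vehicle, and 283 and 349 in WT ATL1222. Dffb read 256 and 192, 277 and 326, and 199 and 259 in the same order. Their knockout differences were 0.11 ± 0.21 and 0.41 ± 0.25, and between WT ATL1222 and KO vehicle they were -0.34 ± 0.21 and -0.38 ± 0.25. Endog, a mitochondrial nuclease, lay between 140.5 and 221, with -0.17, -0.26 and -0.09.

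Most of these genes have more than 1 probe set: 26 have several, up to 7 for Xiap. Of the 90 probe sets, 70 were bright enough to be tested among 27022. None of the 70 passed in any comparison between groups, where 0%, 0.0333% and 0.326% of all probe sets did, for KO vehicle and WT ATL1222 against WT vehicle and for WT ATL1222 against KO vehicle. Of 20 genes with several tested probe sets, 11, 13 and 10 had probe sets of both signs in those comparisons.

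The replicate number separated some arrays. Probe sets with a replicate 2 minus replicate 1 difference past the limma adjusted threshold were 2 of 70 (2.86%), beside 1.4% of all probe sets; among the genes they were 0 of 31, beside 0.907%. One was a Cflar probe set, 1425686_at, at 291, 354 and 343 on the replicate 1 arrays of WT vehicle, KO vehicle and WT ATL1222 and at 575, 578 and 582 on replicate 2. It was higher on replicate 2 in every group, by 0.79 ± 0.14 on the log2 scale (adjusted p = 0.0169). The Cflar probe set used for the gene, 1424996_at, gave 0.09 ± 0.12. The other was Xiap 1456088_at, at 85.2, 134 and 106 on replicate 1 and at 477, 424 and 409 on replicate 2. Its difference was 1.88 ± 0.21 (adjusted p = 7.70e-04), against 0.20 ± 0.11 for the Xiap probe set used for the gene, 1437533_at. These 2 probe sets were picked by the replicate test, so their large replicate differences follow from that choice. For genotype or agonist the differences of both lay between -0.18 and 0.20. What distinguishes replicate 1 from replicate 2 is not given in the labels. The replicate test was added after these values were seen.

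**Figure D3:**
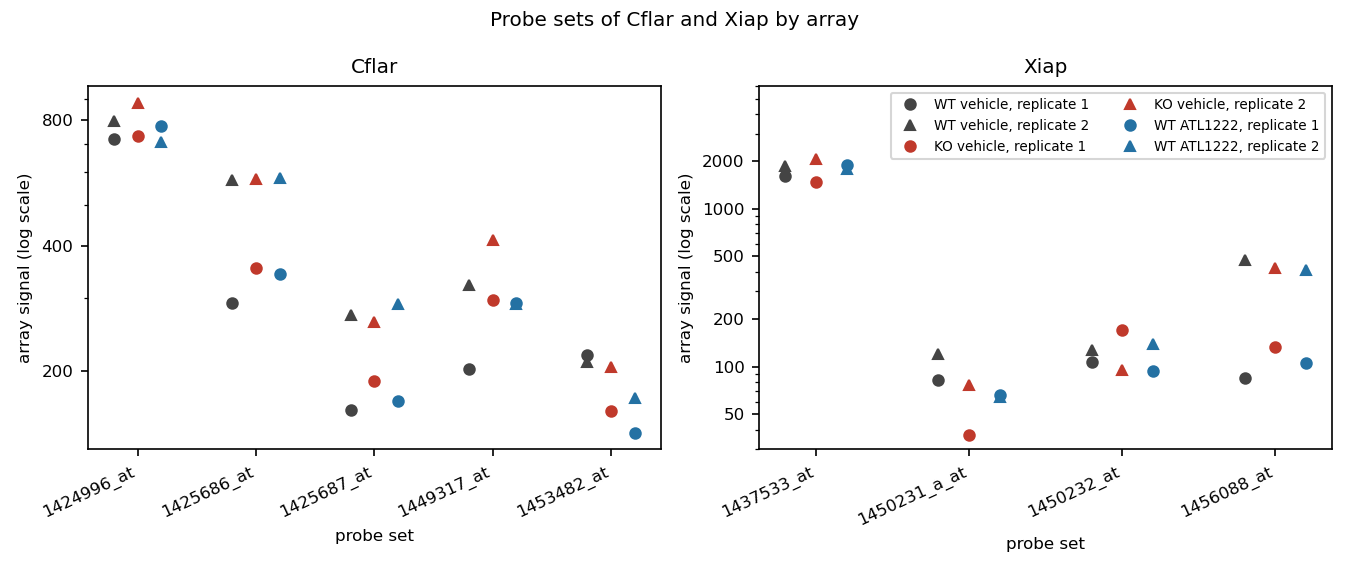
Array signal (vertical axis, log scale) of the tested probe sets of Cflar (left) and Xiap (right); colours are groups, circles replicate 1 and triangles replicate 2. In Cflar 1425686_at and Xiap 1456088_at all 3 triangles lie above all 3 circles, whatever the group.

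Another 69 apoptosis genes outside the set (further Bcl-2 family members, TNF receptor adaptors, caspases, survival kinases) give its surroundings; 57 had a probe set and 48 were tested. Of these, 0 passed in KO vehicle against WT vehicle, 0 in WT ATL1222 against WT vehicle, and 1, higher, in WT ATL1222 against KO vehicle. The 1 called gene is 2.08% of the 48, beside 0.999% of all genes. At an unadjusted p under 0.05 they were 3, 1 and 5 of 48 (6.25%, 2.08% and 10.4%), beside 3.89%, 5.03% and 8.48% of all genes. The median log2 fold changes were -0.07, 0.04 and 0.04. The gene that passed was Faim, an inhibitor of Fas-induced death in lymphocytes. Faim read 1574 and 1201 in WT vehicle, 1163 and 1187 in KO vehicle, and 1900 and 2082 in WT ATL1222. No 2 groups of Faim overlapped: both agonist arrays were highest and both knockout arrays lowest. Faim rose by 0.75 ± 0.16 (95% interval 0.41 to 1.10), or 1.68-fold, in WT ATL1222 against KO vehicle (limma adjusted p = 0.0392). Against WT vehicle its difference was 0.53 ± 0.16 with an adjusted p of 0.518, and in KO vehicle against WT vehicle -0.22 ± 0.16. With any 1 of the 4 arrays compared left out, the difference stayed at 0.69 to 0.82 and the adjusted p was 0.159 to 0.260; the lone array of a group is then assumed to vary like the other groups.

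With the replicate block 3 of the 48 (6.25%, beside 2.42% of all genes) passed in WT ATL1222 against KO vehicle, all higher: Faim (adjusted p = 0.00710), Tank (0.00843) and Traf1 (0.0282). Tank, a binding partner of TRAF proteins in NF-kB signalling, read 1838 and 1742 in WT vehicle, 1362 and 1525 in KO vehicle, and 2075 and 2381 in WT ATL1222. The 3 groups of Tank did not overlap. Its difference between the agonist and knockout groups was 0.62 ± 0.15 (adjusted p = 0.0699 without the block), and its second probe set gave -0.03. Traf1, which binds cIAP1 and cIAP2, read 1959 and 1903, 1711 and 1394, and 2294 and 2092 in the same order. These did not overlap either, with a difference of 0.50 ± 0.15 (adjusted p = 0.202 without the block) and 0.49 at its second probe set. No other gene of this list passed. The next smallest p-values against WT vehicle belonged to Naip5 (-0.92 ± 0.31), Casp1 (-0.62 ± 0.28) and Casp14 (0.61 ± 0.28) in KO vehicle, each with an adjusted p of 1.00, and to Pim1 (-0.25 ± 0.12, adjusted p = 0.998) in WT ATL1222.

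**Figure D4:**
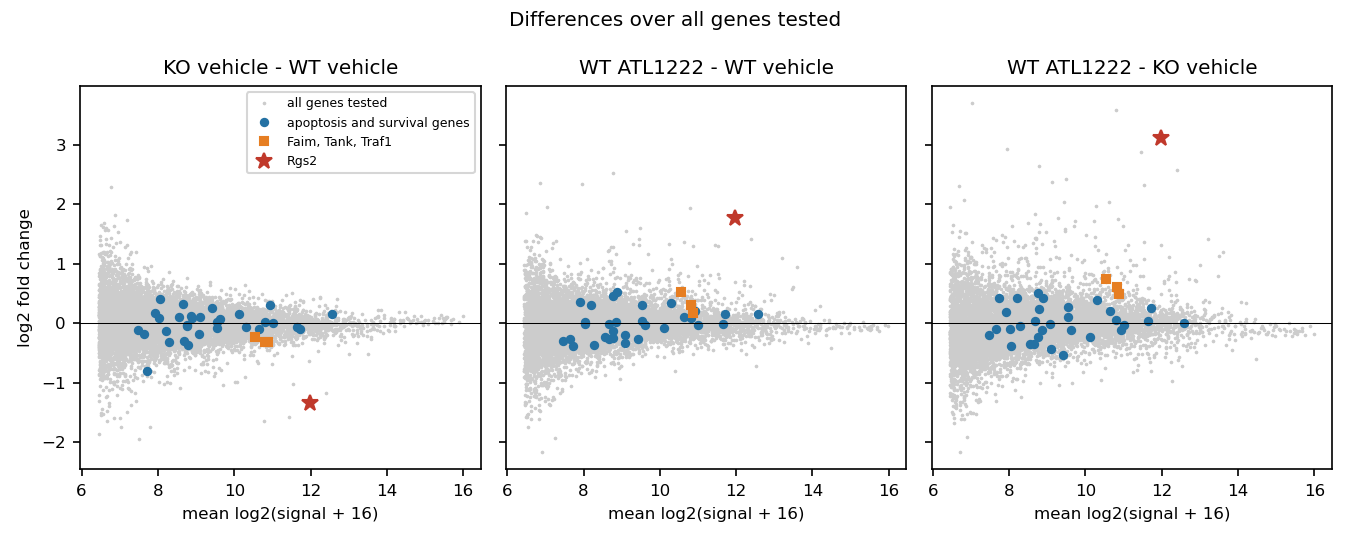
Log2 fold change (vertical axis) against mean log2(signal + 16) (horizontal axis) for all 10916 genes tested (grey) in the 3 comparisons, with the 31 apoptosis and survival genes in blue. The blue points lie between -0.81 and 0.52 in every panel, while Rgs2 (star) stands at -1.33, 1.78 and 3.11, and Faim, Tank and Traf1 are the orange squares.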

How the data were processed

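The authors deposited linear signal intensities of 45101 probe sets, made with GCOS per the submitters' processing notes; version and summarization: not given in the sources used here. The labelled RNA was prepared with biotin from 1 µg of total RNA, per the labels. The authors' scaling was kept, 64 control probe sets were left out, and 34945 probe sets named 1 gene (932 named several and 9160 were not listed in the annotation used). Symbols were updated through Entrez identifiers, which matched the GRCm38.p6 table for 34741. The probe set of highest mean stood for a gene. Tests used log2(signal + 16), a scale on which folds of dim genes come out too small, and the 40% of genes with the lowest means (log2 below 6.45) were dropped. Where probe sets were tested separately, the 40% of probe sets with the lowest means were dropped instead, which is a lower limit.

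Tests were limma 3.58.1 in R 4.3.3, with all 6 arrays in 1 fit and a mean-variance trend, adjusted by Benjamini-Hochberg over 10916 genes (or 27022 probe sets) at 0.05. Precision is set by how few arrays there are: the smallest two-sided p of an exact test with 2 arrays against 2 is 0.33. Same-numbered replicates deviated together (correlations of 0.230, 0.230 and 0.147 over genes), so the replicate number was taken to pair arrays and its block was fitted as an alternative. The scripts were tested on simulated data. Values on each array are given for the 3 genes with the smallest p in each comparison and for key genes, and for others where a role is described; further genes were named after their values were seen. The genes and lists were chosen with earlier results of these data known.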

Additional observations from a re-analysis of the deposited data

How the results depend on the processing

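No apoptosis or survival gene of the set passed under any alternative run, which were the replicate block, pseudocounts of 1 and 64, no filter on dim genes or the lowest 60% left out, probe sets averaged or tested separately, quantile or cyclic loess normalization, no trend, only the 4 arrays compared, and each array left out. Their lowest adjusted p was 0.506 (replicate block, Fadd), 0.205 (without WT vehicle replicate 1, Aifm1) and 0.0736 (replicate block, Bcl2) in the 3 comparisons. Of 669 values of named genes of the set under alternatives, 648 moved by less than 1 standard error and 21 by more. Of the 669, 31 changed sign, all of them uncalled. The block, the filters, no trend, only the 4 arrays compared, or an array of the third group left out cannot move a log2 fold change. The 648 therefore include values that were the same by construction. All-gene counts moved more. For KO vehicle against WT vehicle, 3 genes passed, 9 with the replicate block, 0 with probe sets averaged, tested separately or with no trend, and 3 to 7 with an array left out (7 without WT vehicle replicate 2, 5 without KO vehicle replicate 2). For WT ATL1222 against WT vehicle, 23 passed, 79 with the replicate block, 14 with no filter, 36 with the lowest 60% left out, 3 averaged, 9 probe sets separately, 35 with cyclic loess, 0 with no trend, 44 with only the 4 arrays compared, and 5 to 39 with an array left out (5 without WT vehicle replicate 2 or WT ATL1222 replicate 1, 39 without either KO vehicle array). For WT ATL1222 against KO vehicle, 109 passed, 264 with the replicate block, 70 with no filter, 44 averaged, 5 with no trend, and 42 to 133 with an array left out (42 when WT ATL1222 replicate 1 was left out, 61 when it was KO vehicle replicate 2). Of the other apoptosis genes 1 passed there, 3 with the replicate block, 0 with no filter (Faim adjusted p = 0.0641), averaged (0.105), tested separately (0.122) or with no trend (0.406), and 0 to 1 with an array left out; over the alternatives the adjusted p of Faim ran from 0.00710 to 0.406. The cause of these moves was not tested. The array number limits what can be seen: for the probe set used for each gene, 30 of 31 intervals exclude a 2-fold difference in each comparison, and 13 to 15 exclude 1.5-fold.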
